A study of Mus musculus with 12 samples.

Results

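Whether decitabine and sulforaphane acted additively on the transcriptome of mouse melanoma cells was examined with a single contrast, the change with decitabine in the presence of sulforaphane minus the change with decitabine in its absence. The contrast used 12 of the 12 RNA-seq samples, so its members were chosen by design and not by a measured value, and it was taken for each of 11638 genes that passed the expression filter. B16F10 is an established mouse melanoma cell line. Cells of the DMSO control group received the solvent. The labels give DMSO at 0.025% for the control wells of a dose-finding assay, for which the methods of the study give a lower concentration, and neither gives it for the sequenced cells. Cells of the DAC group received 5-aza-2′-deoxycytidine (decitabine, DAC) at 25 nM over 72 h, with a change of medium at 24 h, cells of the SFN group received sulforaphane (SFN) for 48 h, and cells of the DAC + SFN group received both, with SFN for 48 h. Each group held 3 libraries, numbered replicate 1, 2 and 3. The labels give the SFN dose as 5 nM for SFN alone and 5 µM for the combination, while the methods of the study give micromolar SFN for both. If the labels are taken literally, the contrast also compares unlike SFN doses. All 4 groups came from 1 cell line in culture. The methods of the study describe the treatments as repeated independently, while the labels do not say which culture each library came from.

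DAC is a cytidine analogue that is incorporated into DNA and traps DNA methyltransferases, so that methylation is lost as cells divide. It is known to raise interferon-stimulated genes, p53 targets and genes silenced by promoter methylation. SFN is an isothiocyanate from cruciferous vegetables that modifies cysteines of KEAP1 and so releases the transcription factor NRF2, which drives glutathione, thioredoxin and quinone detoxification genes. When drugs act independently on the rate of transcription or on RNA stability, their fold changes multiply, which is the same as a sum on the log2 scale.

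The departure from additivity was therefore written as (DAC + SFN minus SFN) minus (DAC minus DMSO control) in log2 CPM, the counts of a gene scaled to 1000000 counts of its library. A value of 0 means that the combination changed the gene by the product of the single-drug folds, a value of 1 that the combination lay 2-fold above that product, and a negative value that it lay below it. Library totals ran from 15880957 to 27291436 counts. All 7 melanocyte markers were strongly expressed in every library, Tyrp1, for example, at no less than 9510 CPM, while Ptprc, Cd3e, Krt5, Krt14, Dcn and Lum had at most 3 counts in any library. Col1a1, a fibroblast gene that melanoma cells can express, varied from 15.4 to 365 CPM, and Cd68 from 45 to 239 counts. In bulk RNA, fewer cells with a transcript and less transcript per cell cannot be told apart. Library numbers given in the labels ran from 1 to 4, 5 to 8 and 11 to 14 for the 3 replicate numbers. The labels do not say what they mark, so a batch that follows them cannot be told apart from a replicate number. The latter was a block in the fit.

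No gene departed from additivity at an adjusted p under 0.05 (0 of 11638 genes, edgeR's quasi-likelihood test with Benjamini-Hochberg adjustment). The lowest adjusted p was 0.748, shared by 7 genes. At an unadjusted p under 0.05 there were 683 genes, 5.87% of those tested, of which 365 (3.14%) lay above the product of the single-drug folds and 318 (2.73%) below it. DESeq2's Wald test and limma-trend also called 0 genes after adjustment and gave 505 and 676 genes at an unadjusted p under 0.05. The 683 genes became 401 without SFN replicate 3 and 340 without replicate 1. Testing 17403 genes with no filter on low counts called 1 gene, D830031N03Rik, at an adjusted p of 0.0413.

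The intervals limited how large a departure could be. For 10792 genes (92.7%) the whole 95% interval of the departure lay inside a fold of 2 either way, and for 79.2% it lay inside a fold of 1.5. Among the 9125 genes with a mean of at least 10 CPM these shares were 99.8% and 95.6%. The median half-width of the interval was 0.25 on the log2 scale, a fold of 1.19, and it was 0.61 for genes under 10 CPM. Fitted departures beyond a fold of 2 were found for 28 genes, all of which had a mean under 5 CPM, and no interval lay wholly beyond a fold of 1.5. The median absolute departure, 0.093, was of the same order as the median absolute change with DAC alone (0.076) and with SFN alone (0.12). It lay below the median half-width of 0.25. The departure also has a larger SE than a single-drug change (for Sesn3 0.10 against 0.072 for DAC alone), so these medians differ in precision. Dusp15, a dual-specificity phosphatase, shows how little the data say about a low gene. Its libraries held 1 to 31 counts, and its departure of 1.17 had an interval from -0.53 to 2.87.

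Each replicate number gives its own departure from its own 4 libraries, so departures of different replicate numbers share no library. Across genes, the departures of replicates 1 and 2 correlated at a Pearson r of 0.012, those of 1 and 3 at 0.10 and those of 2 and 3 at 0.043. The effect of DAC averaged over SFN, computed from the same libraries, correlated at 0.45 to 0.50 between replicate numbers and that of SFN averaged over DAC at 0.46 to 0.66. The averaged effects thus correlated more highly between replicate numbers than the departures did. An averaged effect also has a smaller SE than the departure (for Sesn3 0.050 for DAC against 0.10), so the correlations do not compare quantities of equal precision. The SD of the departure over genes was 0.31, 0.31 and 0.30 in the 3 replicate numbers. A departure of the same sign in 3 of 3 replicate numbers was found for 3529 genes (30.3%). The DAC effect kept its sign for 6047 genes (52%) and the SFN effect for 5547 (47.7%). Over 3 replicate numbers the smallest two-sided p of an exact sign-flip test is 0.25. A departure that kept its sign is therefore weak evidence for a single gene. Genes with a mean of at least 10 CPM had departures that correlated at 0.082 to 0.17. With each library's trend on transcript length removed, r ranged from -0.0025 to 0.028 over all genes and 26.8% of genes kept one sign. These correlations are across genes within libraries, and genes are not independent replicates.

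**Figure D1:**
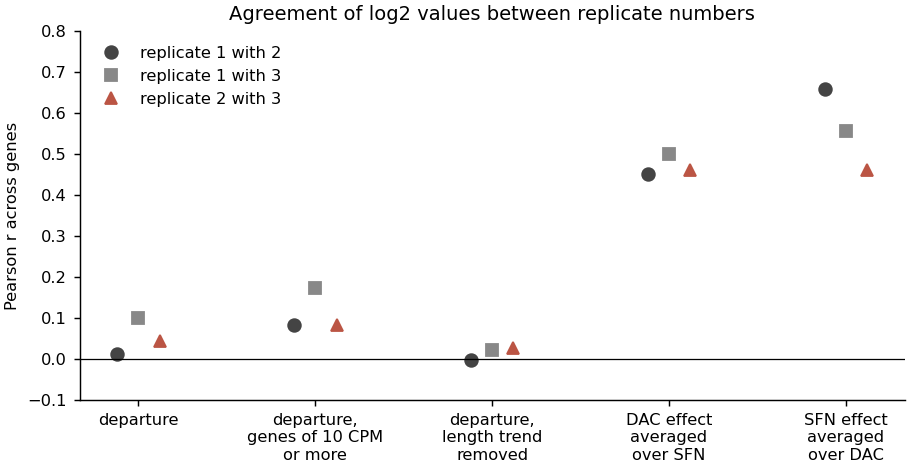
Pearson r across 11638 genes (9125 for genes of 10 CPM or more) between the log2 values of 2 replicate numbers, for the departure from additivity and for the averaged effect of each drug. Departures lie between -0.0025 and 0.17, and the averaged drug effects between 0.45 and 0.66.

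What did recur was a trend with transcript length. The transcript length of a gene was taken as that of its longest annotated transcript and was known for 11604 genes. The Spearman correlation of the departure with length was 0.27 in replicate 1, 0.044 in replicate 2 and 0.45 in replicate 3, with a mean of 0.25. In the shortest of 10 bins of genes, up to 1472 bases, the median departure was -0.14, -0.030 and -0.19 in the 3 replicate numbers. In the longest, from 6874 bases, it was 0.13, 0.011 and 0.22. Between these ends the mean over replicate numbers increased from each bin to the next. In replicate 2 the trend was small at both ends.

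The trend ran in opposite directions in the parts of the contrast. The DAC minus DMSO control change correlated with length at -0.094, -0.0072 and -0.23. Long transcripts were thus slightly lower with DAC alone in replicates 1 and 3. In replicate 2 the median change of the longest bin was 0.0098. The DAC + SFN minus SFN change correlated at 0.21, 0.048 and 0.38, so that long transcripts were higher when DAC was added to SFN. SFN alone against the control gave -0.097, -0.048 and -0.13. Set against the other 3 libraries of its replicate number, DAC + SFN replicate 3 had the largest correlation with length at 0.33, followed by DAC + SFN replicate 1 at 0.13. DAC replicate 3 stood at -0.25, SFN replicate 3 at -0.20 and SFN replicate 1 at -0.17. DAC replicate 1 stood at -0.095, and the 3 control libraries at 0.023 to 0.031. Replicate 2 did not share this pattern for the combination, at -0.0062, or for DAC, at 0.021, and SFN replicate 2 stood at -0.068. The mean correlation was 0.16 without replicate 3 and 0.36 without replicate 2, and 0.15 with the median in place of the longest transcript length. Without ribosomal protein, respiratory chain and histone genes, replicates 1, 2 and 3 gave 0.26, 0.038 and 0.44.

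**Figure D2:**
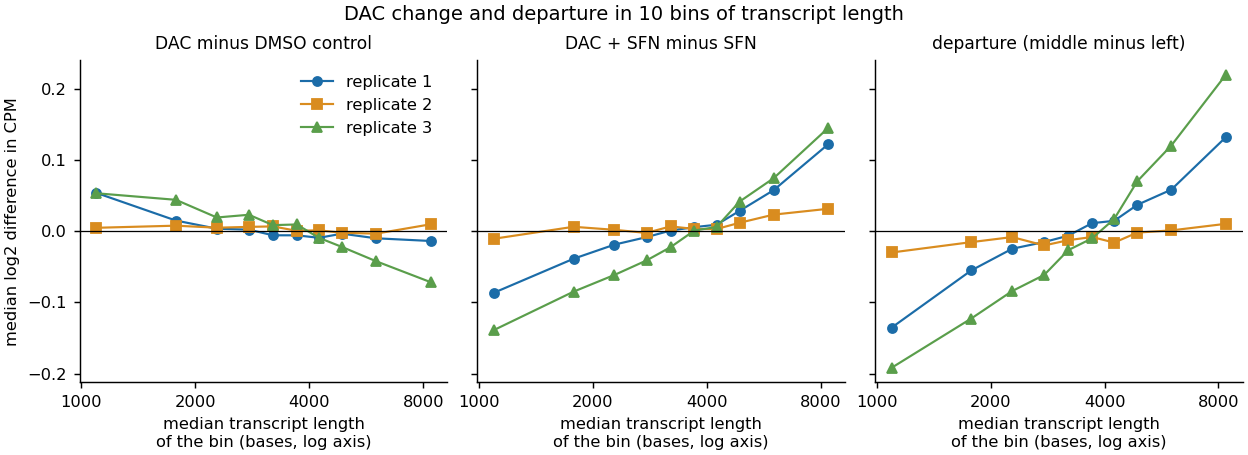
Median log2 difference in CPM (vertical axis) in 10 bins of 1160 or 1161 genes by transcript length (horizontal axis, log scale), for the DAC change without SFN, the DAC change with SFN and their difference, the departure; each line is a replicate number. In replicates 1 and 3 the departure runs from -0.14 and -0.19 in the shortest bin to 0.13 and 0.22 in the longest, and in replicate 2 from -0.030 to 0.011.

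A DAC change that was opposite in sign without and with SFN in all 3 replicate numbers was found for 437 genes (3.75%). Random signs alone also give such genes, and the share they would give was not estimated. The trend on length also marked the genes with the smallest p-values. The 365 genes above the product had a median transcript length of 7651 bases and the 318 below it 1730 bases, against 3461 bases over all genes tested. Of the 10 genes with the smallest p, 9 lay above the product, and 8 of the 9 with a known length were longer than the median. A correction of each library for its own trend on length left 0 genes past the adjusted threshold and 339 genes at an unadjusted p under 0.05. Whether RNA integrity, fragmentation or another step of library preparation differed between these libraries was not tested.

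Genes of the cytosolic ribosome, which encode the protein subunits of the machine that reads mRNA and have some of the shortest transcripts of the cell, all lay below the product. Of 79 ribosomal protein genes tested, 79 had a negative departure (52.2% of all genes did), 67 were negative in 3 of 3 replicate numbers (15.8% of all genes), and 45 had an unadjusted p under 0.05 (2.73% of all genes were negative at that p). None passed after adjustment. Their median departure was -0.19, and -0.23, -0.088 and -0.25 by replicate number, and their median transcript length was 1094 bases. With the length correction the median was -0.076, with 74 negative and 9 at an unadjusted p under 0.05. Reads of ribosomal protein genes can be shared with their many processed pseudogenes, so single values are uncertain.

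Rpl13a, a subunit of the large ribosomal particle, was measured at 678, 752 and 692 CPM in the control libraries, 749, 734 and 735 with DAC, 726, 760 and 744 with SFN alone, and 647, 690 and 615 with both. The 3 combination libraries lay below all 3 SFN libraries, and the DAC libraries lay within the control range. Its departure was -0.26 (95% interval -0.42 to -0.10), and -0.15 with the length correction.

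Nuclear-encoded subunits of the respiratory chain, which carry electrons and pump protons in mitochondria, are also short and followed the same course. Of 83 tested, 78 had a negative departure (52.2% of all genes), 44 in 3 of 3 replicate numbers (15.8%), and 21 at an unadjusted p under 0.05 (2.73%). Their median was -0.14 and their median length 1232 bases, and the length correction brought the median to -0.045 with 57 negative. Uqcr10, a small subunit of complex III, was measured at 95.7, 115 and 104 CPM in the control libraries and at 122 to 125 CPM with DAC. It stood at 125, 139 and 128 CPM with SFN and at 122, 138 and 123 CPM with both. Each drug alone gave a level above the control in every replicate number, and the combination lay below SFN alone in each. Cox7c, a subunit of cytochrome c oxidase, had a departure of -0.39 (interval -0.64 to -0.14), and -0.24 with the length correction.

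The named genes with the smallest p-values above the product had mean levels near or below the control with either drug alone. In every replicate number their combination library lay above both single-drug libraries, except for D830031N03Rik in replicate 2. These genes were picked for their departure in the same libraries, so this ordering follows partly from the choice. None passed after adjustment in the main fit. Hipk2 (chromosome 6, 38694390 to 38876165, mm10), a nuclear kinase that phosphorylates p53 and other transcription regulators, was measured at 33.4, 31.7 and 29.4 CPM in the control libraries, 30.9, 29.6 and 27.1 with DAC and 32.4, 25.8 and 19.9 with SFN. With both drugs it stood at 50.3, 32.5 and 35.4 CPM, above every other library of the same replicate number. The product of the single-drug folds gives 23.8 CPM and the geometric mean observed was 38.7 CPM. The departure was 0.71 (interval 0.38 to 1.04, unadjusted p = 0.000397, adjusted p = 0.748), and 0.61 with the length correction.

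Sesn3 (chromosome 9, 14275067 to 14333101), a sestrin that is induced by stress and restrains the growth kinase mTORC1, had the smallest p of all genes. It was measured at 34.0, 27.2 and 26.4 CPM in the control, 31.5, 25.8 and 25.1 with DAC, 30.9, 25.3 and 25.7 with SFN alone, and 41.8, 31.4 and 35.1 with both. Within each replicate number the combination library was the highest. Its departure was 0.49 (interval 0.28 to 0.70, unadjusted p = 0.000216), and 0.36 with the length correction, for a transcript of 9125 bases.

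Prkx (X chromosome, 77761411 to 77796278), a cAMP-dependent protein kinase, had a transcript near the middle of the range, 4146 bases. It was measured at 57.5, 54.2 and 54.4 CPM in the control, 55.5, 49.5 and 47.0 with DAC, 47.7, 47.6 and 41.0 with SFN alone, and 59.1, 53.4 and 53.7 with both. The SFN libraries lay below all control libraries, and the combination overlapped the control range. The departure was 0.42 (interval 0.23 to 0.61) and was 0.41 with the length correction, so it hardly moved. Zfp30, a zinc finger gene of 3707 bases, had a departure of 0.69 (interval 0.27 to 1.11) and 0.70 with the correction, at a level of only 3.97 to 6.56 CPM. D830031N03Rik, for which no length was known, had a departure of 0.87 that came largely from replicate 3, with 0.42, 0.57 and 1.57 by replicate number. It stood at 30.3 CPM or more in the control and at 17.2 to 24.1 CPM with SFN alone, and in replicate 2 the combination, at 19.9 CPM, lay below DAC alone, at 23.3 CPM.

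The other named genes of this kind had very long transcripts. Macf1, a giant linker of actin and microtubules with a transcript of 23495 bases, had a departure of 0.41 (interval 0.21 to 0.60), and 0.12 with the length correction. Herc1, a giant ubiquitin ligase of 15153 bases, went from 0.43 to 0.22, and 4932438A13Rik, of 15883 bases, from 0.44 to 0.22. Lyst, the lysosomal trafficking regulator that is mutated in beige mice, was measured at 83.1, 62.2 and 59.6 CPM with SFN, 88.3, 56.3 and 64.2 with DAC, and 91.8, 69.1 and 74.7 with both. Its combination libraries lay above both single-drug libraries of the same replicate number. Its departure of 0.50 (interval 0.28 to 0.73) became 0.31. Trip11, a Golgi tether, went from 0.42 to 0.27, Trim56, a ubiquitin ligase of innate immunity, from 0.65 to 0.51, and Hspg2, which encodes the basement membrane proteoglycan perlecan, from 0.56 to 0.35.

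Snhg8 (chromosome 3, 123507552 to 123508404), a short host transcript of small nucleolar RNAs, was measured at 3.08, 4.09 and 5.03 CPM in the control, 5.05, 5.23 and 5.73 with DAC, 6.92, 7.34 and 6.71 with SFN alone, and 4.42, 5.55 and 4.76 with both. The SFN libraries lay above all others, and the combination lay below SFN alone in every replicate number. The departure was -0.92 (interval -1.40 to -0.45, unadjusted p = 0.000916, adjusted p = 0.817), and -0.78 with the length correction. Snhg7, another host transcript of this class, had a departure of -0.57 (interval -0.97 to -0.18). Ankle1, a DNA endonuclease gene, had -0.58 (interval -0.97 to -0.19), with 17.6 to 19.6 CPM with SFN and 13.2 to 15.9 with both.

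Several genes with low departures encode secreted signals or take part in the feedback on ERK signalling, the kinase cascade that growth factor receptors drive. Lif (chromosome 11, 4257557 to 4272514), an IL-6 family cytokine, was measured at 0.782, 2.32 and 1.18 CPM in the control, 2.24, 6.76 and 2.66 with DAC, 4.75, 15 and 6.17 with SFN alone, and 9.56, 23.6 and 7.14 with both. In every replicate number it was higher with either drug than in the control and highest with both. Its departure was -0.80 (interval -1.36 to -0.25), and -0.42, -0.85 and -0.91 by replicate number. The level of 11.8 CPM with both lay between the product of the folds, 19.6 CPM, and the sum of the differences in CPM, 9.84 CPM. Etv5, an ETS factor induced by ERK, had -0.53 (interval -0.93 to -0.13). Its replicate numbers gave -0.029, -1.14 and -0.37, so replicate 2 carried most of it.

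Spry4, an inhibitor of the cascade, had a departure of -0.51 (interval -0.95 to -0.068) with -0.15, -1.09 and -0.19 by replicate number. Hbegf, a ligand of the EGF receptor, had -0.51 (interval -0.95 to -0.060), and Dusp14, a phosphatase of MAP kinases, -0.50 (interval -0.98 to -0.028). In these 3 genes the level observed with both drugs was below the sum of the single differences. As a whole, however, the 23 tested genes of the ERK feedback and AP-1 list had a median departure of 0.0039, with 12 above and 11 below the product, and 0.23, -0.26 and -0.24 by replicate number. Its 3 members at an unadjusted p under 0.05 were Etv5, Spry4 and Hbegf (2.73% of all genes were below the product at that p). Of the 23 genes, 4 were below the product in 3 of 3 replicate numbers (15.8% of all genes). Ccl5, a chemokine that attracts T cells, was raised by both drugs, from 2.15 to 4.16 CPM in the control to 14.9 to 21.2 CPM with both. Its departure was -0.50, with an interval from -1.11 to 0.11, and the observed 17.3 CPM lay between a sum of 14.5 and a product of 24.1 CPM. Of the 14 tested genes of the cytokine list, 11 lay below the product (52.2% of all genes did), with a median of -0.13 and with 0.10, -0.086 and -0.29 by replicate number. The median turned positive, at 0.0026 to 0.032, without DAC replicate 3, without SFN replicate 2 and without replicate 2 or 3 as a whole.

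**Figure D3:**
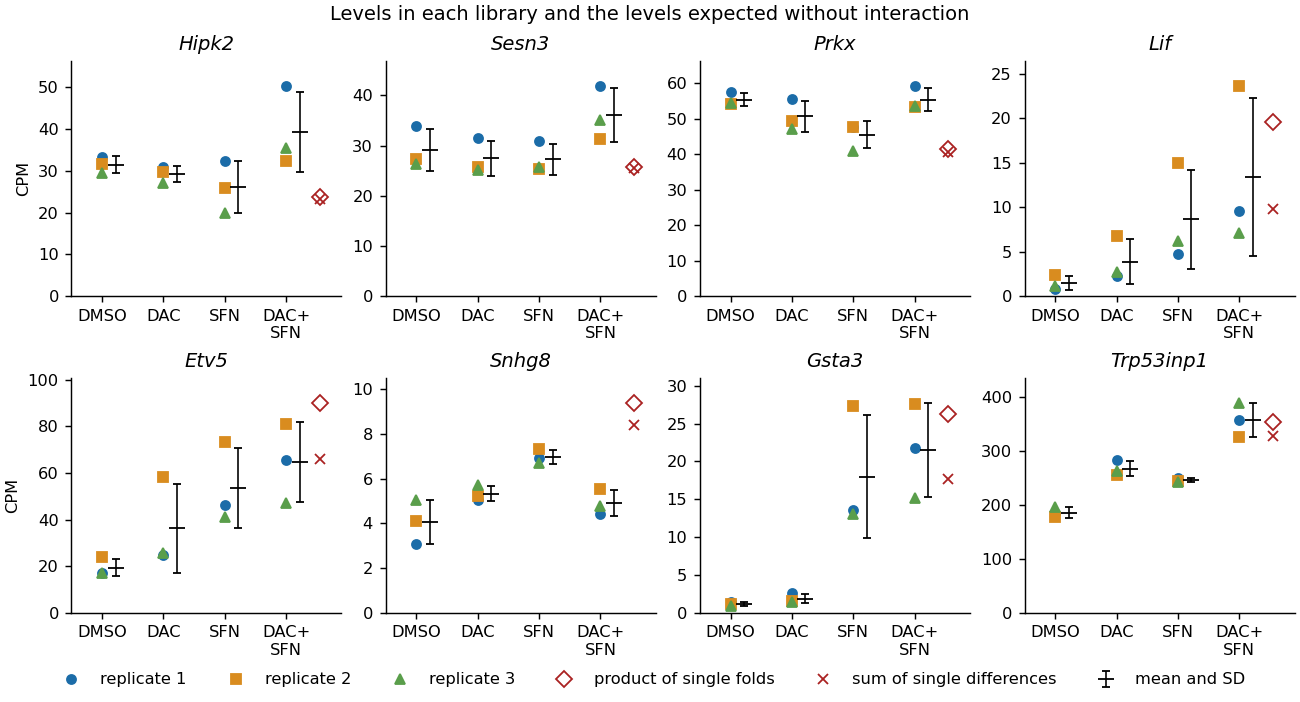
Level of 8 genes in each of the 12 libraries (points, CPM, axes from 0), with the mean and SD of each group (bars, n = 3) and the level in DAC + SFN that the product of the single-drug folds (diamond) or the sum of the single-drug differences (cross) would give, both from group geometric means. For Hipk2 the product is 23.8 CPM and all 3 combination libraries lie at 32.5 CPM or more, for Snhg8 the product is 9.40 CPM and all 3 lie at 5.55 CPM or less, and for Trp53inp1 the libraries lie on both sides of 353 CPM.

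Genes with the largest DAC response had similar median changes without and with SFN. The averaged effect of DAC called 20 genes at an adjusted p under 0.05 and a fold above 2 (0.172% of genes tested), all of them raised. An averaged effect is independent of the departure only where libraries vary alike, and their trends on length differed. The median DAC change of these genes was 0.91, 1.17 and 1.31 without SFN and 0.92, 1.07 and 1.25 with SFN in replicates 1, 2 and 3. Their median departure in the direction of the response was -0.037, with 11 genes below and 9 above the product (52.2% of all genes lay below). By replicate number it was -0.14, -0.28 and 0.048. Leaving out 1 library at a time and calling genes again gave 6 to 29 genes. Their medians ran from -0.55 without SFN replicate 3 to 0.23 without SFN replicate 2, so the median of -0.037 is not precise. In linear CPM, as a share of each gene's mean level, the median departure was 0.058, opposite in sign to that on the log2 scale.

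Trp53inp1, a p53 target that promotes cell death and autophagy, was measured at 184, 177 and 196 CPM in the control, 283, 256 and 263 with DAC, 250, 244 and 242 with SFN alone, and 357, 325 and 389 with both. The 4 groups did not overlap. The observed 356 CPM was close to the product of 353 CPM, with a departure of 0.012 (interval -0.17 to 0.19), whose sign turned to -0.035 with the length correction. Cpz, a carboxypeptidase gene, had 6.35 to 9.64 CPM in the control, 13 to 19 with DAC and 18.5 to 22 with both, and a departure of -0.21 (interval -0.55 to 0.13). Plk2, a polo-like kinase induced by p53, had -0.12 (interval -0.36 to 0.13). Over the 26 p53 targets tested, 16 were raised by the averaged effect of DAC (3.07% of all genes were) and 19 by that of SFN (16.1% of all genes). Their median departure was -0.048, with 0.081, -0.19 and -0.055 by replicate number, and it turned to 0.020 without DAC + SFN replicate 2 and to 0.046 without replicate 2. Psrc1 (-0.21, interval -0.41 to -0.0039) and Apaf1, the core of the apoptosome (0.18, interval 0.013 to 0.35), were the only p53 targets at an unadjusted p under 0.05.

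Interferon-stimulated genes, which cells switch on when they sense viral or self nucleic acid, were raised by the averaged effect of DAC in 37 of 46 tested (3.07% of all genes were). The DAC change had a median of 0.65 without SFN and 0.70 with SFN. The departure had a median of 0.075, with 29 genes above the product (47.8% of all genes), and -0.012, 0.066 and 0.24 by replicate number. Without DAC replicate 3 the median was 0.33, without SFN replicate 3 it was -0.17 and without DAC replicate 2 -0.016, so its sign rests on single libraries. Only Mx1, an antiviral GTPase, had an unadjusted p under 0.05, with a departure of 0.84 (interval 0.15 to 1.54) at 0.866 to 10.0 CPM. Irgm2, an interferon-inducible GTPase, had 0.55 (interval -0.035 to 1.14), Ddx58, the RNA sensor RIG-I, 0.15 (interval -0.28 to 0.58), and Ifitm3, a gene outside the list whose product blocks viral entry, -0.29 (interval -0.67 to 0.082).

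Cxcl10, a chemokine induced by interferon, was measured at 8.92, 12.5 and 12.7 CPM in the control, 14.8, 14.5 and 23.4 with DAC, 11, 10.3 and 11.9 with SFN alone, and 20.8, 22.1 and 26.1 with both. With SFN alone it lay in the control range. The departure was 0.43 (interval 0.048 to 0.82), with 0.19, 0.88 and 0.26 by replicate number. The promoters of Cxcl10 and of Gsta3, the gene with the largest SFN response named here, are shown because each holds letters known from the sites of the respective factors, GAAANNGAA for interferon regulatory factors and TGACNNNGC for NRF2. They are the 250 bases before the annotated start (RefSeq, GRCm38.p6), Cxcl10 at chr5:92348890-92349139 on the minus strand and Gsta3 at chr1:21240335-21240584 on the plus strand, with the match in capitals.
Cxcl10: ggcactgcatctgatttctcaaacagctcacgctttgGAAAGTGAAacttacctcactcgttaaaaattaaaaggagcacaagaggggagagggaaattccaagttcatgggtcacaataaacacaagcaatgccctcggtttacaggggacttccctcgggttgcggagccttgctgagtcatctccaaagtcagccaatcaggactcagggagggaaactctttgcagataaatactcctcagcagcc
Gsta3: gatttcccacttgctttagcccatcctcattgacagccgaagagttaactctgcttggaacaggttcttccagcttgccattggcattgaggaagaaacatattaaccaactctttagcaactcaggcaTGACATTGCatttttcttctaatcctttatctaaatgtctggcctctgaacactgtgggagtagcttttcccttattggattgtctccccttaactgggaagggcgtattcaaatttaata
Of 8966 tested genes with a promoter entry, 5.91% held GAAANNGAA and 12.2% TGACNNNGC on either strand of a window of the same length. The median departure was -0.0096 with and -0.0076 without the first, and -0.0098 with and -0.0071 without the second. A match is a description of these letters and not a binding site.

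Among genes with the largest response to SFN, those raised had a median below the product in 2 of 3 replicate numbers. The averaged effect of SFN called 138 genes at an adjusted p under 0.05 and a fold above 2 (1.19%), 112 of them raised. The median departure of the 138 in the direction of the response was -0.19, and -0.18 after the length correction. Counts against that direction were 96 and 102 genes. Below the product lay 85 of the 112 raised and 15 of the 26 lowered genes (52.2% of all genes). By replicate number, however, the median of the 138 was 0.097, -0.48 and -0.20. In the same direction it was 0.024, -0.53 and -0.23 for the raised and 0.53, -0.16 and -0.15 for the lowered genes. For the 112 raised genes the SFN change was 1.38, 1.68 and 0.94 without DAC and 1.45, 1.19 and 0.83 with DAC. In replicate 2 the response was thus smaller on top of DAC, and in replicate 1 it was not. With 1 library left out and the genes called again, the median ran from -0.38 without DMSO control replicate 3 to 0.0012 without DAC replicate 3, and was -0.030 without DAC + SFN replicate 3. Without replicates 1, 2 and 3 as a whole it was -0.37, -0.078 and -0.099. At an adjusted p alone, over 3443 genes, the median was 0.0027. In linear CPM, as a share of each gene's mean level, the median departure of the genes called was 0.079. Its sign was thus opposite to that on the log2 scale.

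Gsta3 (chromosome 1, 21240589 to 21265661), a glutathione transferase, was measured at 1.47, 1.16 and 0.822 CPM in the control, 2.57, 1.59 and 1.39 with DAC, 13.6, 27.4 and 13 with SFN alone, and 21.8, 27.6 and 15.2 with both. Every library with SFN lay above every library without it, and the SFN and combination libraries overlapped. The departure was -0.48 with an interval from -1.25 to 0.29, and the observed 21 CPM lay between the sum of 17.6 and the product of 26.3 CPM. Nqo1, the quinone reductase that is the textbook NRF2 target, had 7.45 to 9.04 CPM in the control, 33.2 to 35.2 with SFN and 33.5 to 38.6 with both. Its departure was 0.15 (interval -0.27 to 0.57). Of 40 NRF2 targets tested, 31 were raised by the averaged effect of SFN (16.1% of all genes were), and 23 lay below the product (52.2% of all genes). The median departure was -0.037, with -0.021, 0.070 and -0.13 by replicate number. With the length correction it turned to 0.021, with 18 genes below the product. It was also positive, at 0.0056 to 0.048, without DAC replicate 1 or 3, SFN replicate 2, DAC + SFN replicate 3 or replicate 3 as a whole. The 3 members at an unadjusted p under 0.05 lay below the product (2.73% of all genes did at that p). Among them was Txn1, thioredoxin, at 319 to 361 CPM in the control, 393 to 448 with SFN and 342 to 398 with both. Its departure was -0.25 (interval -0.42 to -0.091). Aldh1a3, a retinaldehyde dehydrogenase, was also among them, with -0.45 (interval -0.83 to -0.066). The departure of Txn1, a short transcript of 1051 bases, became -0.14 with the length correction and that of Aldh1a3 -0.44.

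Among other genes with a large SFN response, Ccnd1, which encodes cyclin D1, was measured at 233, 452 and 273 CPM in the control, 332, 759 and 392 with DAC, 575, 1215 and 581 with SFN alone, and 880, 1375 and 667 with both. Within each replicate number the combination was the highest library. Its departure was -0.26 (interval -0.56 to 0.046). Bcan, the proteoglycan brevican, had -0.35 (interval -0.81 to 0.11), and Abca12, a lipid transporter lowered by SFN from between 34.1 and 102 CPM to between 10.1 and 35.6 CPM, had 0.35 (interval -0.0059 to 0.71). Trib3, an ATF4 target lowered by SFN from between 51.1 and 68.6 CPM to between 23.7 and 33.8 CPM, stood at 34.9 CPM with both, the level of the product, with a departure of -0.0053 (interval -0.20 to 0.19) that turned to 0.049 with the length correction. Over the 29 tested genes of ATF4 and the unfolded protein response the median was 0.029, and it turned to values from -0.014 to -0.0013 without DMSO control replicate 2, DAC + SFN replicate 3 or replicate 2.

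Genes of cholesterol synthesis and uptake were lowered by the averaged effect of SFN in 28 of 30 (13.5% of all genes were). Their departure had a median of 0.062, with 24 genes above the product (47.8% of all genes), but the replicate numbers gave -0.18, 0.23 and 0.064, and 1 gene was positive in all of them (14.5% of all genes). The median turned to values from -0.030 to -0.0052 without DMSO control replicate 2, SFN replicate 2 or replicate 2 as a whole. Nsdhl, a sterol dehydrogenase, had 0.19 (interval -0.094 to 0.47) and Scd1, the stearoyl-CoA desaturase, 0.13 (interval -0.073 to 0.34). Of 27 genes of hypoxia and glycolysis, 22 lay below the product (52.2% of all genes did), with a median of -0.12. Without DMSO control replicate 2 that median was 0.081, without DAC + SFN replicate 1 it was 0.039 and without DAC + SFN replicate 2 -0.31. Ndrg1, a gene induced by hypoxia, went against it with 0.23 (interval -0.011 to 0.47), while Mgarp, a mitochondrial protein gene, had -0.64 (interval -1.31 to 0.019).

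Cell cycle genes lay mostly below the product, with transcripts of ordinary length, a median of 3128 bases for DNA replication and 3586 for mitosis. Of 45 DNA replication genes, 19 were lowered by the averaged effect of DAC (2.15% of all genes were) and 26 by that of SFN (13.5%). A negative departure was found for 39 of them (52.2% of all genes), 17 in 3 of 3 replicate numbers (15.8%), and 0 were positive in all, with a median of -0.097 and of -0.088 with the length correction. The DAC change had a median of -0.13 without and -0.24 with SFN. By replicate number the median departure was -0.19, -0.028 and -0.074, and over the 15 leave-out fits it stayed between -0.17 and -0.039. Tk1, thymidine kinase, was measured at 170, 182 and 168 CPM in the control, 161, 161 and 154 with DAC, 188, 172 and 202 with SFN alone, and 131, 143 and 146 with both. The combination libraries lay below all others. Its departure was -0.29 (interval -0.49 to -0.090), and that of Fen1, the flap endonuclease, -0.18 (interval -0.34 to -0.020), with -0.21, -0.17 and -0.17 by replicate number.

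Of 30 mitosis genes, 18 were lowered by the averaged effect of DAC (2.15% of all genes), and 27 had a negative departure (52.2%), 11 in 3 of 3 replicate numbers (15.8%), with a median of -0.078 that the length correction left at -0.078. By replicate number it was -0.21, -0.089 and 0.013. With libraries left out it ran from -0.16 without DAC + SFN replicate 3 to -0.017 without DMSO control replicate 3. Aurkb, a kinase of chromosome segregation, was measured at 130 to 139 CPM in the control, 124 to 127 with DAC, 117 to 135 with SFN and 95.6 to 106 with both, and the combination libraries lay apart from all others. Its departure was -0.23 (interval -0.42 to -0.037). Aurka, the spindle pole kinase, had -0.20 (interval -0.37 to -0.025) and Kif23, a cytokinesis kinesin, -0.23 (interval -0.46 to -0.0075). H2afz, the histone variant H2A.Z, had -0.29 (interval -0.53 to -0.050), and 10 of 13 histone genes lay below the product (52.2% of all genes). The median of the histone genes was 0.030, -0.11 and -0.11 by replicate number. None of these genes passed after adjustment.

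More widely, the averaged effect of DAC called 607 genes at an adjusted p alone (5.22%). Of the 250 it lowered, 212 lay below the product with the combination (52.2% of all genes did). The median DAC change in the direction of lowering was 0.17, 0.17 and 0.17 without SFN and 0.34, 0.24 and 0.24 with SFN. The median departure, 0.097 further down, was 0.18, 0.062 and 0.079 by replicate number, and 0.079 with the length correction. The count of genes lowered depended on the libraries. It was 0 without replicate 1 as a whole and with no replicate block, 12 without replicate 2, 35 without SFN replicate 1, 42 without SFN replicate 3 and 614 without DAC + SFN replicate 3. The median departure ranged from 0.038 to 0.20 over the 14 leave-out fits that gave genes. For the 357 genes raised by DAC the corresponding median was -0.0034. None of the 250 genes passed for the departure itself.

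Both drugs had an averaged effect on 398 genes at an adjusted p alone. On 222 of these both raised the level. With the combination 126 of the 222 lay below the product (52.2% of all genes did). Above the sum of the differences in CPM lay 164, and 68 lay between the sum and the product. On 153 genes both lowered the level, and 132 of those lay below the product (52.2% of all genes). The product and the sum differed by a median of 0.090 on the log2 scale in the first group and 0.023 in the second, less than the median half-width of 0.25 of a gene's interval. Of 20 genes of pigment synthesis and melanocyte identity, 1 was called by the averaged effect of DAC (5.22% of all genes were) and 10 by that of SFN (29.6%), 5 of them raised. Their departure had a median of 0.061, with 16 above the product (47.8% of all genes). By replicate number the median was 0.057, 0.13 and -0.042, and 3 genes were positive in all of them (14.5% of all genes). The median was 0.010 without replicate 2 as a whole. Myo5a, the motor that carries melanosomes, a transcript of 11702 bases, had 0.27 (interval 0.094 to 0.44), and 0.097 with the length correction. Of 40 germline and imprinted genes, 11 passed the filter and their median was 0.065, with 0.058, -0.064 and 0.13 by replicate number.

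**Figure D4:**
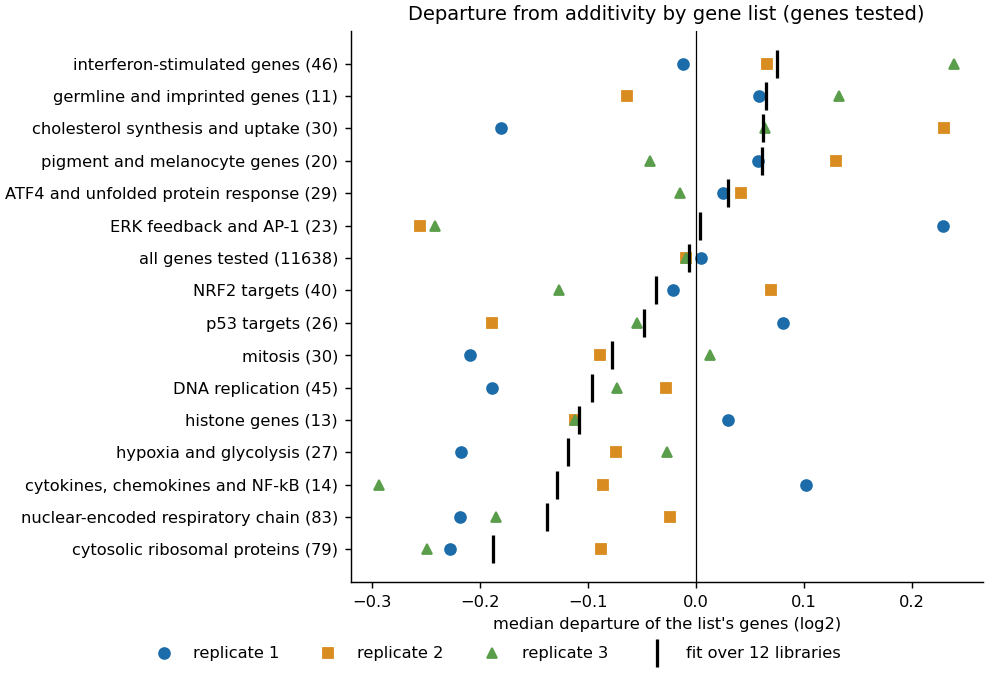
Median departure of each gene list (log2, horizontal axis) in each replicate number (coloured points) and from the fit over 12 libraries (black bar), with the number of genes tested in brackets. Ribosomal protein and respiratory chain genes lie left of 0 in all 3 replicate numbers, while the lists of ERK feedback, cholesterol and p53 genes have replicates on both sides of 0.

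**Figure D5:**
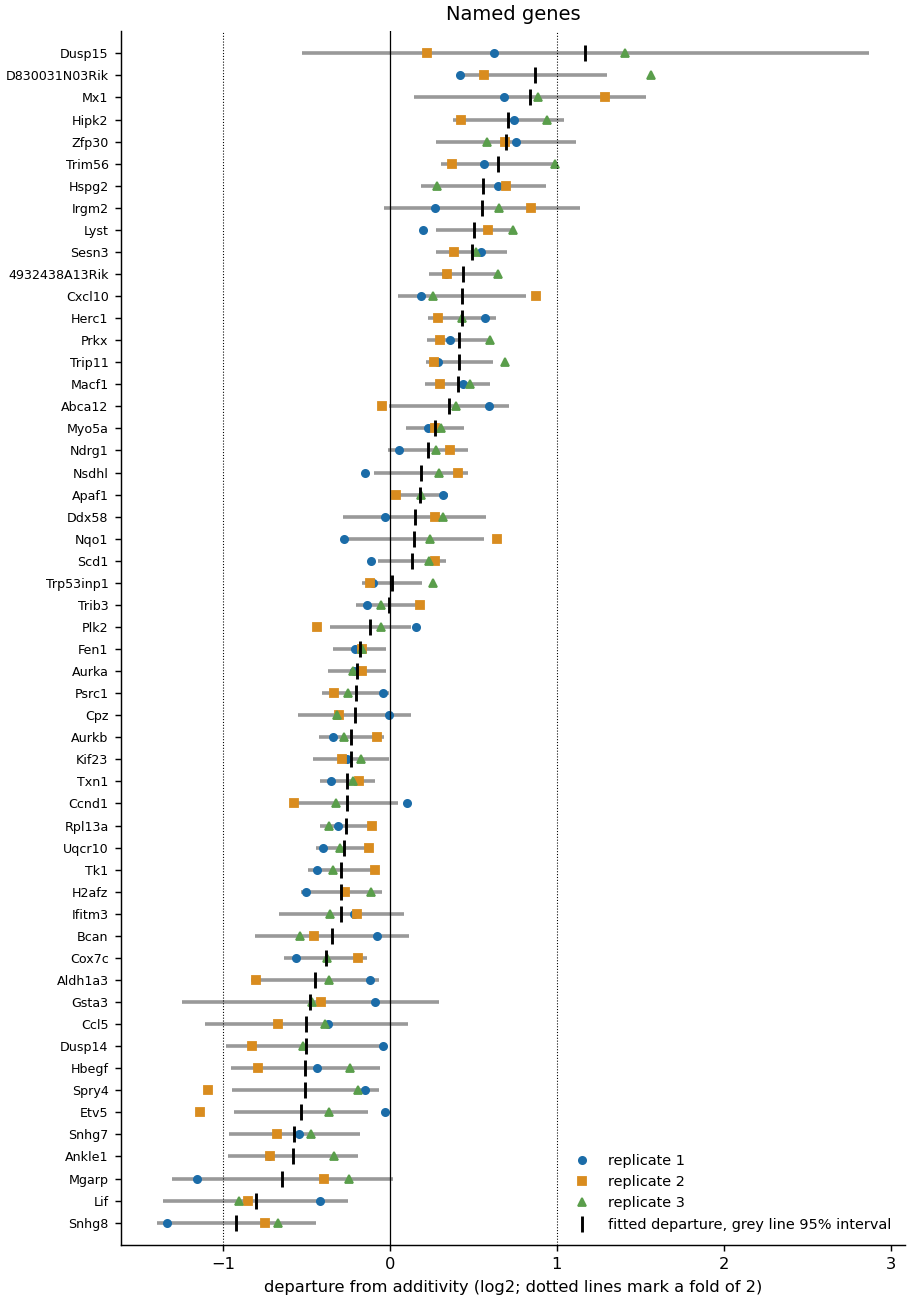
Fitted departure (black bar) with its 95% interval (grey line) and the departure in each replicate number (coloured points) for the 54 genes named here, in log2; dotted lines mark a fold of 2 either way. Intervals of genes such as Fen1 or Trp53inp1 lie well inside a fold of 2, and that of Dusp15 runs from -0.53 to 2.87.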

How the data were processed

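RNA-seq libraries (TruSeq stranded mRNA, 75 base single-end reads) were made by the authors from B16F10 cells, 1 for each of 12 samples. The deposited values are raw counts per gene, which the authors made from reads checked with FastQC 0.11.7, trimmed with Trimmomatic 0.38, aligned to mm10 with TopHat 2.1.1 and counted with HTSeq, keeping uniquely aligned reads. The annotation used for counting is not given in the sources used here, nor is the strand setting.

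Of 24421 symbols, 11638 had at least 1 CPM in at least 3 libraries and were tested. Counts were fitted with edgeR 4.0.16 (glmQLFit with the legacy estimate, glmQLFTest; R 4.3.3) with TMM factors, 4 group terms and the replicate number as a block, as the study corrected for batch. Deviations from the group means correlated at a mean r of 0.54 (0.27 to 0.73) over 18 pairs of the same replicate number and at -0.27 over 36 pairs of different numbers, so the numbers paired the samples. Departure, averaged effects and single comparisons were contrasts of the same fit, with intervals at 95% from the SE and the total degrees of freedom. Values by replicate used log2 CPM with a prior count of 2. Transcript lengths came from GENCODE M21, in which 24098 symbols (98.7%) were matched. The length correction was a loess curve of log2 CPM on length per library (span 0.3), entered as an offset with the replicate block. Scripts were tested on simulated data. Other normalizations, filters, tools (DESeq2 1.42.0, limma 3.58.1) and omissions of libraries were tried. The version 4 fit of edgeR and the removal of the length trend by replicate were added after the data had been seen. At these depths 1 CPM is 15.9 to 27.3 counts. The precision covers the spread between 3 libraries per group.

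Genes named in the text were taken from those with the smallest p, the most positive and most negative departures, the largest averaged effects and the leading members of each list. Of these 54 are named. The contrast, the gene lists and the rule were chosen with earlier results of these data known. Some single-gene results are not reported here. The letters of both promoter motifs were set after other forms of them had been searched in these promoters: the interferon motif was shortened and the NRF2 motif was narrowed.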

Additional observations from a re-analysis of the deposited data

Results flagged for a closer look

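For the following results the DAC change went one way in all 3 replicate numbers without SFN and the opposite way in all 3 with SFN. For single genes the test of the departure is the test of this difference, and none passed after adjustment; for transcript length the difference was not tested. The same pattern was found in 437 of 11638 genes (3.75%). Random signs alone also give such genes, and that share was not estimated. Except for Uqcr10, the genes below were picked for a small p or an extreme departure in the same libraries.

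The correlation of the DAC change with transcript length was negative without SFN and positive with SFN, and differed by 0.32 on average. In replicate 2 it was only -0.0072 without and 0.048 with SFN, so the average rests mainly on replicates 1 and 3. Of the genes above the product, Sesn3 (departure 0.49), Lyst (0.50), Prkx (0.42), 4932438A13Rik (0.44), Herc1 (0.43), Hipk2 (0.71), Trip11 (0.42), Hspg2 (0.56), Zfp30 (0.69) and D830031N03Rik (0.87) were lower than the control with DAC alone and higher than SFN alone with the combination. Of the genes below it, Snhg8 (-0.92), Snhg7 (-0.57), Ankle1 (-0.58) and Uqcr10 (-0.28) showed the reverse. With the length correction some of these departures shrank (Herc1 to 0.22) and others hardly moved (Prkx 0.41, Zfp30 0.70, Snhg8 -0.78), and no length was known for D830031N03Rik and Snhg7. The part of the length trend in each value was not tested further.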

How the results depend on the processing

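The count of genes past the adjusted threshold for the departure stayed at 0 under 24 of the 25 other fits, at an adjusted p under 0.1 and with a fold above 2 added. It was 1 with no filter on low counts and 683 at an unadjusted p under 0.05. Genes at that unadjusted p numbered 172 with no replicate block, 339 with the length correction and 340 to 906 with libraries left out, and the block changed no other call of the departure. With no replicate block the averaged effect of DAC called 0 genes in place of 20 at the same thresholds, and requiring 10 counts in every library left 10. The averaged effect of SFN called 138 genes, 215 with no filter and 90 with at least 10 counts in every library. The ribosomal protein median moved from -0.19 to -0.076 with the length correction, and the mean correlation between replicate numbers from 0.052 to 0.11 at 10 CPM or more. Over the fits with libraries left out, the averaged effect of DAC called 4 to 29 genes and their departure had a median from -0.55 to 0.23, the genes lowered by DAC 0.038 to 0.20, interferon-stimulated genes -0.17 to 0.33, hypoxia genes -0.31 to 0.081, ATF4 genes -0.014 to 0.074, the ERK feedback genes -0.18 to 0.088, and the mean correlation 0.012 to 0.10. The sign of 8 list medians turned with some libraries left out, those of interferon-stimulated, hypoxia, ATF4, ERK feedback, NRF2, p53, cholesterol and cytokine genes. Of 54 named genes none passed after adjustment in any of these fits except D830031N03Rik. The sign turned for Trp53inp1 (-0.035) and Trib3 (0.049) with the length correction, and with libraries left out for Trp53inp1 (-0.11 to 0.073), Trib3 (-0.096 to 0.061), Plk2 (-0.25 to 0.048), Ddx58 (-0.080 to 0.38), Nqo1 (-0.029 to 0.40) and Dusp15 (-0.46 to 1.69). The percentage of intervals inside a fold of 2 was 62.6% with no filter. With 3 libraries per group, departures under the interval of each gene were not detectable.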
